A study of Mus musculus with 132 samples.

Results

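The step from Flk1+ mesoderm to CD41+ hematopoietic progenitor cells (HPCs) was followed across all genes in 7 wild-type poly(A)-minus RNA-seq libraries, 3 of mesoderm and 4 of HPCs. They were taken by their sample labels from a count table of 23 libraries, in a series of 132 samples on chromatin folding and expression around the hematopoietic regulator Runx1. All 7 libraries came from wild-type clones of the mouse embryonic stem cell line E14-TG2a, of the 129/Ola strain. Mesoderm was sorted for surface Flk1 at day 4 from embryoid bodies grown with BMP4, Activin A and bFGF. HPCs were sorted at day 7 as CD41+ cells without CD45 and Ter119, after sorted mesoderm had been cultured with SCF and VEGF, so both groups are products of an in vitro culture and not embryonic tissue. By name the clones were C6.1, C8.1 and B9.3, and the last of them gave 2 of the HPC libraries (B9.3 and B9.3-2), so the 4 HPC libraries stand for 3 clones. The same step in P1-CTCF-KO clones (6 libraries) and P2-CTCF-KO clones (8 libraries), which lack the CTCF site beside the P1 or the P2 promoter of Runx1, was used only as a comparison.

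In the embryo, a subset of the mesoderm that carries the VEGF receptor Flk1 (encoded by Kdr) passes through an endothelial state before blood cells bud from it. GATA, RUNX and ETS family transcription factors, with Tal1 and its partners, drive the blood program, and the first cells to appear are primitive red cells with embryonic globins, megakaryocytes and progenitors marked by CD41 (integrin alpha 2b, encoded by Itga2b). Removing polyadenylated RNA leaves nascent and intron-containing transcripts, and also mature RNAs that carry no poly(A) tail. For genes with polyadenylated mRNA the counts here thus follow transcription more closely than the pool of mature mRNA.

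Levels are given as counts per 1000000 of all counted reads (CPM) on effective library sizes, and the values of a gene run through the mesoderm libraries (B9.3, C6.1, C8.1) and then the HPC libraries (B9.3, B9.3-2, C6.1, C8.1). Mesoderm libraries totalled 18233679 to 21634629 counts and HPC libraries 8293575 to 10733304, but ribosomal RNA and entries listed at several loci took 89.1% to 91.0% of them in mesoderm and 87.8% to 89.1% in HPCs. All other genes together had 1955010 to 2134615 counts in mesoderm and 900145 to 1302151 in HPCs. In bulk libraries such as these, fewer cells of a type and less RNA per cell cannot be told apart.

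The genes behind the sorts followed the labels. Itga2b stood at 0.963, 0.456 and 1.12 CPM in mesoderm and at 34.0, 17.5, 15.1 and 28.2 CPM in HPCs. Kdr stood at 34.9, 25.2 and 15.7 CPM in mesoderm and at 9.3, 4.31, 2.25 and 6.17 CPM in HPCs. Neither gene overlapped between the groups, and both encode a sorting antigen, so they check the sorts and are no result. Sall4, a transcription factor of stem cells and early mesoderm that no sort used, stood at 9.63, 32.0 and 20.1 CPM in mesoderm and at 0.143, 0.331, 0.0804 and 0.208 CPM in HPCs, a difference (HPC minus mesoderm, log2) of -6.75 ± 0.53 (SE, adjusted p = 0.00013).

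Markers of other cells were not at the same level in every library. The mesoderm library B9.3 held the endothelial markers Cdh5, Pecam1, Tek and Emcn at a summed 58.6 CPM, against 1.25 CPM in the lowest mesoderm library and 7.48 to 12.7 CPM in HPCs. Fibrillar collagen genes stood apart in both libraries labelled B9.3. Col1a2 had 165, 3 and 13 counts in mesoderm and 324, 1, 5 and 2 counts in HPCs, and Postn (periostin, a matrix protein of connective tissue) had 26, 0 and 0 counts in mesoderm and 225, 3, 4 and 3 in HPCs. Nearly all of these counts came from mesoderm B9.3 and HPC B9.3, while the HPC library B9.3-2 of the same clone held 1 and 3. Of the leukocyte markers, Ptprc (encoding CD45, gated against) had 0 counts in mesoderm and 0 to 3 in HPCs, and Csf1r and Mpo had at most 5 counts in any library. Defining markers of endoderm (Foxa2, Afp, Ttr) had at most 1 count in a library, and the neural markers Sox1 and Pax6 none in HPCs. The cardiac markers Tnnt2, Myl7 and Nkx2-5 summed to 0.114 to 0.321 CPM in mesoderm and 0.241 to 1.07 CPM in HPCs, all of it Tnnt2 in HPCs. The part of these cells in the results was not tested, and values with and without the B9.3 libraries are given below where they matter. The mesoderm library C6.1 had a normalization factor of 0.405, below every other library.

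Of 25146 genes in the table, 7343 had enough counts to be tested. Between mesoderm and HPCs, 963 genes (13.1% of those tested) rose and 976 (13.3%) fell, by edgeR's quasi-likelihood test at an adjusted p under 0.05 and a log2 difference over 1 in size. The libraries of the groups did not overlap for 1866 of these 1939 genes, and for 3008 of all 7343 genes tested. Of the genes that rose, 45 had no read in any mesoderm library, while 2 of those that fell had no read in any HPC library. Both numbers depend on the filter on low counts. It left out genes read in 1 stage alone, such as Wnt3 (107 counts in mesoderm, 0 in HPCs) and Gp6 (0 and 111). They thus do not compare genes switched on with genes switched off. Without a filter 1191 genes rose and 1717 fell. Over all tested genes the median log2 difference was -0.06. The first principal component of the 500 most variable genes held 86.3% of their variance and separated the stages, with every mesoderm library between -36.2 and -32.1 and every HPC library between 17.7 and 33.9. Without mesoderm B9.3 the counts were 976 and 939, without HPC B9.3 they were 958 and 1120, and without mesoderm C6.1 they were 922 and 891.

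**Figure D1:**
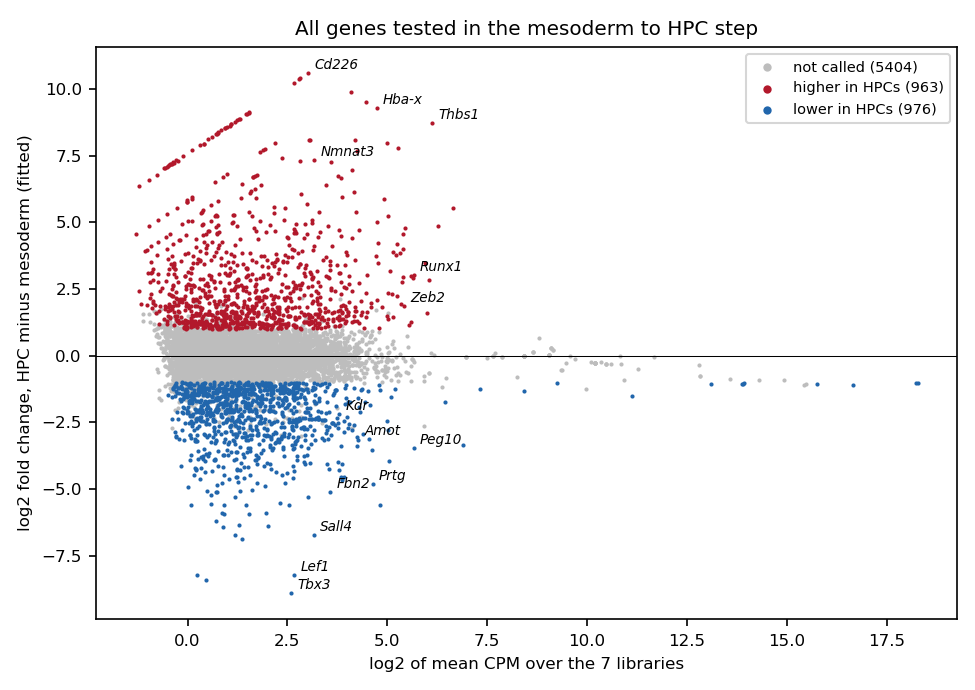
Log2 difference (HPC minus mesoderm, fitted) of each of the 7343 genes tested against the log2 of its mean CPM over the 7 libraries; red points are the 963 genes that rose, blue points the 976 that fell and grey points the rest. The line of points at the upper left are genes without a mesoderm read, whose fitted difference is set by the prior count and is no measured size.

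Erythroid genes rose throughout. All 21 tested members of this list (22 of the 24 listed are in the table) rose, with a median log2 difference of 7.95, or 5.72 when genes with no mesoderm read are set at their lower bound, against -0.06 for all genes tested. The embryonic alpha-like globin Hba-x stood at 0.107, 0 and 0.0558 CPM in mesoderm and at 20.2, 69.1, 60.8 and 35.7 CPM in HPCs. Its ratio of 661 rests on 3 mesoderm counts and has a 95% counting interval from 226 to 3206. The embryonic beta-like globin Hbb-bh1 had 0.268, 0 and 0 CPM in mesoderm and 18.6, 39.2, 39.7 and 30.9 CPM in HPCs (log2 difference 8.1 ± 0.70, adjusted p = 0.00014). The adult-type Hba-a1, which has a near-identical copy that can take or lend reads, had 1.14 to 3.98 CPM in HPCs and no read in mesoderm, at least 32.5-fold higher in HPCs.

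Membrane skeleton and heme genes moved with the globins. Slc4a1, the band 3 anion exchanger, had no mesoderm read and 6.58, 17, 14.8 and 5.90 CPM in HPCs, at least 156-fold higher. Epb41, which anchors spectrin and is also used outside red cells, was already transcribed in mesoderm (11.5, 8.44 and 11.6 CPM) and rose to 67.5, 66.4, 84.1 and 98 CPM (log2 difference 2.90 ± 0.24, adjusted p = 0.00013). The transferrin receptor gene Tfrc and the rate-limiting heme enzyme gene Alas2 rose as well, and so did the erythropoietin receptor Epor, from at most 0.161 CPM to between 0.555 and 1.66 CPM (log2 difference 3.47 ± 0.63, adjusted p = 0.0033). Among the HPC libraries the summed list was 235 CPM in B9.3, 432 or 433 CPM in B9.3-2 and C6.1 and 330 CPM in C8.1, against 17.9 to 20.2 CPM in mesoderm.

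All 19 tested megakaryocyte and platelet genes rose (median log2 difference 7.18, or 5.61 at the bounds), Itga2b, the sorted antigen, among them. Thbs1, the thrombospondin stored in platelet granules, stood at 0.375, 0.114 and 0.279 CPM in mesoderm and at 210, 58.6, 47.7 and 173 CPM in HPCs (log2 difference 8.74 ± 0.80, adjusted p = 0.00017). Itgb3, the integrin subunit that pairs with CD41, rose from 0.214, 0 and 0.558 CPM to 94.3, 38.2, 42.5 and 93.4 CPM (log2 difference 7.78 ± 0.72, adjusted p = 0.00017). Both genes were higher in HPC libraries B9.3 and C8.1 than in B9.3-2 and C6.1. The platelet tubulin Tubb1 had no mesoderm read and 14.4, 9.50, 9.17 and 16.4 CPM in HPCs, at least 194-fold higher, and the lipoxygenase Alox12 likewise had no mesoderm read and 9.15, 2.54, 1.21 and 7.56 CPM in HPCs, at least 83.4-fold higher. The purinergic receptors P2rx1 and P2ry1, through which platelets sense ATP and ADP, had 2 and 6 counts in all of mesoderm. In HPCs P2ry1 stood at 6.08, 4.09, 3.54 and 7.49 CPM (log2 difference 5.24 ± 0.44, adjusted p = 0.00013), and P2rx1 was 132-fold higher (counting interval 36.3 to 1099). Pf4 and Gp6, too sparse to be tested, had 0 counts in mesoderm and 92 and 111 counts in HPCs, again mostly in B9.3 and C8.1.

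The erythroid and the megakaryocyte sums thus ran in different orders over the HPC libraries. The megakaryocyte sum was 568 CPM in B9.3 and 522 CPM in C8.1, against 216 CPM in B9.3-2 and 214 CPM in C6.1, and at most 6.21 CPM in mesoderm. The libraries with the higher megakaryocyte sums had the lower erythroid sums, in 4 libraries and with no test, and the 2 libraries of clone B9.3 fell on different sides.

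**Figure D2:**
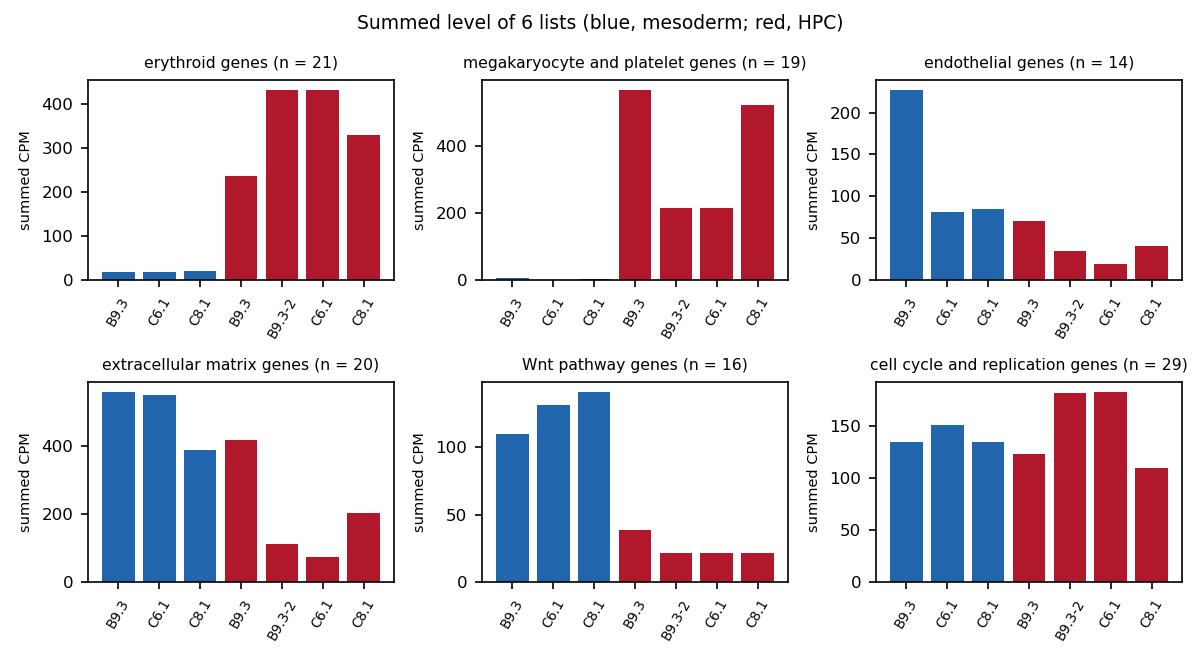
Summed CPM of the tested members of 6 gene lists in each of the 3 mesoderm (blue) and 4 HPC (red) libraries, one bar per library. The erythroid and megakaryocyte sums of every HPC library lay above those of every mesoderm library, while the cell cycle sums of the groups overlapped, at 135 to 151 CPM and 110 to 183 CPM.

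Of 8 tested myeloid and leukocyte genes (26 listed), 7 rose, with a median log2 difference of 3.90. Dock2, an activator of Rac in migrating blood cells, stood at 0.161, 0 and 0.112 CPM in mesoderm and at 4.22, 2.98, 2.82 and 5.13 CPM in HPCs (log2 difference 5.03 ± 0.50, adjusted p = 0.00021). Vav1, a guanine nucleotide exchange factor of blood cells, rose to 6.65, 2.21, 2.98 and 8.05 CPM (log2 difference 5.40 ± 0.78, adjusted p = 0.0010). Itgb2, the shared beta subunit of the leukocyte integrins, had no mesoderm read and 2.76 to 4.65 CPM in HPCs, at least 57.9-fold higher. The other 18 were not tested for want of reads.

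Of 23 tested hematopoietic transcription factor genes, 12 rose and 2 fell (median log2 difference 1.49). Runx1, on chromosome 16 (mm9 chr16:92601710-92826319, minus strand), was transcribed at 3.69, 11.9 and 14.4 CPM in mesoderm and at 77.5, 64.8, 70.7 and 113 CPM in HPCs (log2 difference 3.03 ± 0.46, adjusted p = 0.0014). Every HPC library lay above every mesoderm library, and the lowest mesoderm value was that of B9.3. Tal1, a master regulator of blood and hemogenic endothelium, rose from 2.3, 2.96 and 2.45 CPM to 8.58, 8.39, 8.37 and 9.85 CPM (log2 difference 1.79 ± 0.20, adjusted p = 0.00032). Its partner Lmo2 rose in parallel (2.13 ± 0.29, adjusted p = 0.00081), as did its corepressor Cbfa2t3, from 3.37, 3.19 and 3.12 CPM to 19.8, 19.5, 14.5 and 20.4 CPM (2.52 ± 0.21, adjusted p = 0.00013).

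Factors of the erythroid and megakaryocyte branch came from near the detection limit. Gata1, which directs both lineages, stood at 0.0535, 0 and 0.0558 CPM in mesoderm and at 2.79, 2.54, 2.90 and 3.61 CPM in HPCs, a ratio of 68.3 (counting interval 18.6 to 569). Gfi1b rose from at most 0.456 CPM to 7.29, 6.19, 3.94 and 4.09 CPM (log2 difference 4.80 ± 0.64, adjusted p = 0.00074), and Nfe2, needed for platelet release, rose by 4.61 ± 0.66 (adjusted p = 0.00098). Gata2 did not pass the test, at 0.856, 1.03 and 1.56 CPM in mesoderm and 0.715, 0.552, 0.885 and 0.694 CPM in HPCs (-0.68 ± 0.33, adjusted p = 0.15). Cbfb, the cofactor shared by RUNX proteins, fell from 7.65, 6.27 and 6.13 CPM to 2.72, 1.66, 2.17 and 3.40 CPM (-1.41 ± 0.25, adjusted p = 0.0032), opposite to Runx1. The macrophage and B cell factor Spi1 had 1 count in mesoderm and 26 in HPCs and was not tested.

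Mecom and Kit were spread widely over the mesoderm libraries. Mecom, a stem cell and endothelial factor, had 25.8, 1.37 and 6.63 CPM in mesoderm and 0.501, 1.77, 0 and 0.0694 CPM in HPCs, with overlap (-4.46 ± 1.11, adjusted p = 0.014). The SCF receptor gene Kit had 16.9, 1.37 and 5.35 CPM in mesoderm and 3, 3.42, 2.57 and 5.97 CPM in HPCs and did not pass the test (-1.10 ± 0.64, adjusted p = 0.23). Both were highest in mesoderm B9.3, the library with the high endothelial markers. The part of endothelial cells in that was not tested.

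**Figure D3:**
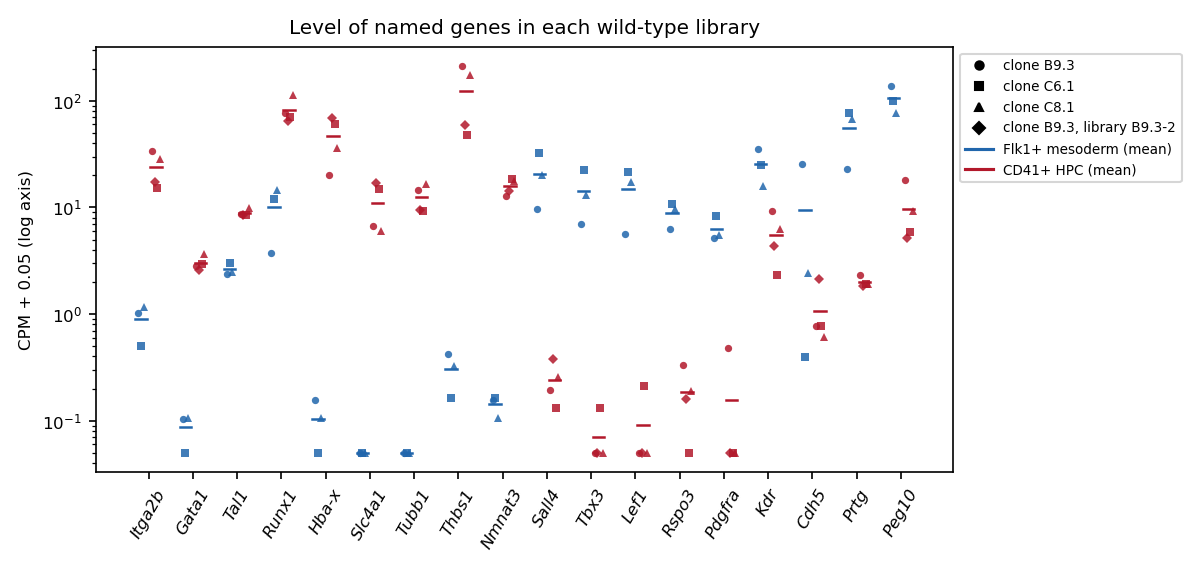
CPM (0.05 added, log axis) of 18 genes in the 3 mesoderm (blue) and 4 HPC (red) libraries, with the clone as the symbol and the group mean as a line. Itga2b to Nmnat3 lay higher in every HPC library and Sall4 to Peg10, Cdh5 apart, lower in every HPC library, and for Cdh5 the mesoderm library B9.3 at 25.3 CPM stood above all others.

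The genes that rose with the smallest adjusted p included many that no list held. Nmnat3, an enzyme of NAD synthesis that is abundant in red cells, stood at 0.107, 0.114 and 0.0558 CPM in mesoderm and at 12.7, 14.2, 18.4 and 17.6 CPM in HPCs (log2 difference 7.33 ± 0.35, adjusted p = 3.2e-05), the smallest adjusted p of any gene named here. The adhesion receptor Adgrg1 rose by 5.08 ± 0.29, the polyamine oxidase Smox by 5.67 ± 0.35, the phosphoinositide kinase Pip5k1b by 4.86 ± 0.30 and the tetraspanin Tspan32 by 6.08 ± 0.37 (log2 differences, each with an adjusted p of 6.7e-05). Pip5k1b shares its reads with the overlapping entry Fam122a. Uba7, the activating enzyme for the ubiquitin-like protein ISG15, and the adenylyl cyclase Adcy9 rose by 5.34 ± 0.34 and 4.49 ± 0.36. Acetylcholinesterase (Ache), found on mouse megakaryocytes and red cells, had 1 mesoderm count and 5.55 to 7.28 CPM in HPCs, a ratio of 284 (counting interval 50.6 to 11250).

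Among genes with the largest differences, the adhesion receptor Cd226 had no mesoderm read and 17.2, 4.31, 9.33 and 25.7 CPM in HPCs, at least 233-fold higher, and the adaptor Sla had no mesoderm read and 17.1, 7.40, 6.19 and 17.5 CPM, at least 193-fold higher. Slc25a21, a mitochondrial carrier, was 847-fold higher on 2 mesoderm counts (interval 234 to 6998), at 17.7, 41.3, 69.5 and 26 CPM in HPCs. Slc25a21 followed the order of the erythroid sum, with C6.1 and B9.3-2 highest, while Cd226 and Sla were highest in C8.1 and B9.3. Atp8a1 and Aftph were already transcribed in mesoderm. The lipid flippase Atp8a1 went from 3.21, 3.53 and 3.07 CPM to 44, 26.8, 42 and 60.4 CPM (3.73 ± 0.31, adjusted p = 0.00013), and Aftph, a protein of vesicle traffic, from 1.87, 1.94 and 1.84 CPM to 16.4, 12.8, 10.5 and 15.3 CPM (2.87 ± 0.24, adjusted p = 0.00013).

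On the falling side, Tbx3, Lef1 and Sall4 were among the genes with large differences. Tbx3, a T-box factor of stem cells and early mesoderm, stood at 7.01, 22.5 and 12.9 CPM in mesoderm and had 1 count in all HPC libraries, 615-fold lower there (counting interval 110 to 24348). Sall4 and the RNA-binding proteins Lin28a and Trim71 were the pluripotency and germline genes that fell, 3 of 5 tested. Lin28a went from 5.46, 11.4 and 11.1 CPM to at most 0.286 CPM (-6.41 ± 0.63, adjusted p = 0.00019), and Trim71 from 23.7, 31.6 and 39.7 CPM to 3.15, 0.552, 0.483 and 1.04 CPM (-4.55 ± 0.56, adjusted p = 0.00050). In all 3 genes every HPC library lay below every mesoderm library.

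Wnt pathway genes fell in number, 11 of 16 tested and none higher (32 listed, median log2 difference -3.09). Lef1, a transcription factor that carries the Wnt response, stood at 5.62, 21.5 and 17.1 CPM in mesoderm and had 2 counts in HPCs, both in C6.1, a 330-fold lower level (counting interval 91.0 to 2733). Rspo3, a secreted enhancer of Wnt signaling, fell from 6.26, 10.6 and 9.70 CPM to 0.286, 0.110, 0 and 0.139 CPM (-5.89 ± 0.48, adjusted p = 0.00013). The coreceptor Lrp5 fell by 3.02 on the log2 scale (SE 0.31, adjusted p = 0.00023). The feedback target Axin2 fell from 1.61, 10.3 and 8.92 CPM to at most 0.358 CPM (-5.02 ± 0.79, adjusted p = 0.0016). Apcdd1, a membrane inhibitor of the pathway outside the list, was 132-fold lower (36.1 to 1095). The list summed to 110, 131 and 141 CPM in mesoderm and to 38.3, 21.6, 21.2 and 21.7 CPM in HPCs.

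Of 15 tested genes of BMP, Nodal and TGF-beta signaling, 9 fell and 1 rose (median log2 difference -1.12). The ligand Bmp5 fell from 1.61, 4.90 and 5.69 CPM to 0.429, 0, 0 and 0.0694 CPM (-4.77 ± 0.78, adjusted p = 0.0019), Bmp7 was 57.7-fold lower on 2 HPC counts (15.6 to 483), and the effector Smad1 fell by 3.67 on the log2 scale (SE 0.52, adjusted p = 0.00097). Tgfb1 was the member that rose, from 2.03, 2.74 and 1.95 CPM to 16.2, 10.6, 9.33 and 17.4 CPM (2.6 ± 0.30, adjusted p = 0.00039). The target Id3, too sparse for the test, had 90 counts in mesoderm and 1 in HPCs.

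Receptors for growth factors and cytokines mostly fell, 12 of 21 tested against 3 that rose (median log2 difference -1.84). The activin receptor Acvr2b fell from 9.69, 19.5 and 13.9 CPM to 2.07, 2.76, 2.01 and 2.22 CPM (-2.66 ± 0.27, adjusted p = 0.00022), and Il6st, the shared receptor of the IL-6 family, fell by 2.06 on the log2 scale (SE 0.28, adjusted p = 0.00082). Epor and the ephrin receptor Epha4 were among the 3 that rose. Epha4 went from 3.8, 1.82 and 5.46 CPM to 12.9, 6.19, 7.08 and 16.9 CPM (1.52 ± 0.45, adjusted p = 0.029), and its call was lost without mesoderm B9.3, mesoderm C6.1 or HPC C8.1. Pdgfra, a receptor of paraxial and cardiac mesoderm, stood at 5.08, 8.21 and 5.46 CPM in mesoderm and was read in a single HPC library, B9.3, at 0.429 CPM (-5.60 ± 0.73, adjusted p = 0.00065). Aplnr, the apelin receptor of nascent mesoderm, was 98.2-fold lower on 3 HPC counts (33.2 to 479).

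Primitive streak genes could hardly be tested, since Pdgfra alone of 21 listed had enough reads, and several of the others had reads in mesoderm alone. Eomes, a T-box factor of the streak, had 14, 47 and 28 counts in mesoderm, Mixl1 had 13, 38 and 24, and T had 3, 16 and 5, and all 3 had 0 counts in HPCs. Wnt3 had 107 and the EMT factor Snai1 had 53 counts in mesoderm and 0 in HPCs. For the first 3 of these genes mesoderm B9.3, the highest in endothelial markers, was the lowest mesoderm library. Cardiac and lateral plate genes fell in 4 of 7 tested, Gata4 from 2.19, 7.52 and 8.03 CPM to 0.715, 0, 0.161 and 0 CPM (-4.58 ± 0.82, adjusted p = 0.0031) and Gata6 from 4.87, 3.53 and 3.62 CPM to 1, 0.110, 0 and 0 CPM (-3.73 ± 0.80, adjusted p = 0.0072, and 0.054 by DESeq2). The paraxial and intermediate mesoderm list had 1 tested gene, which did not pass. HPC B9.3, the library with the collagen reads, held most of what remained of Gata4 and Gata6.

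The Notch receptors Notch1, Notch2 and Notch3 fell, 3 of 8 tested in that pathway (median log2 difference -1.11). Notch3 went from 6.21, 10.6 and 17 CPM to 0.429, 0.221, 0 and 0.278 CPM (-5.51 ± 0.57, adjusted p = 0.00023), Notch2 fell by 2.67 (SE 0.35) and Notch1 by 3.02 (SE 0.48) on the log2 scale. Notch1 stood at 18.9, 5.70 and 7.69 CPM in mesoderm, highest in B9.3.

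Endothelial genes fell in 7 of 14 tested, none rose and the median log2 difference was -2.03, but the count rested on mesoderm B9.3. Cdh5, the VE-cadherin gene that marks endothelium, had 25.3, 0.342 and 2.40 CPM in mesoderm and 0.715, 2.1, 0.724 and 0.555 CPM in HPCs, so the groups overlapped (-3.29 ± 1.08, adjusted p = 0.044). Without mesoderm B9.3 its difference was -0.64 with an adjusted p of 0.53, and 3 members fell and 2 rose. Its call was also lost without any one of the HPC libraries (adjusted p 0.061 to 0.114) and with the B9.3 HPC libraries summed (0.065). Efnb2, the arterial ephrin, did not follow that library, at 6.53, 6.95 and 4.91 CPM in mesoderm and 1.22, 0.663, 0.402 and 0.486 CPM in HPCs (-3.11 ± 0.36, adjusted p = 0.00035). Nrp2, a VEGF coreceptor, fell by 2.91 on the log2 scale (SE 0.72, adjusted p = 0.014). Pecam1 had 9.90, 0.342 and 2.56 CPM in mesoderm and 5.23 to 8.95 CPM in HPCs and did not pass the test (0.62 ± 0.69, adjusted p = 0.54). Without HPC B9.3-2 the list had 4 members that fell, and without HPC C6.1 or HPC C8.1 it had 3.

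Of 20 tested extracellular matrix genes (28 listed, 27 in the table), 12 fell and 1, the platelet protein Thbs1, rose (median log2 difference -2.91). The fibrillin Fbn2 went from 34.2, 17.1 and 29.3 CPM to 2.15, 0.331, 0.322 and 0.139 CPM (-5.13 ± 0.69, adjusted p = 0.00078), the proteoglycan Vcan from 46.2, 21.1 and 29.8 CPM to 3.65, 0.221, 0.241 and 0.763 CPM (-4.66 ± 0.77, adjusted p = 0.0020) and the laminin chain Lama5 by -4.88 ± 0.62 (adjusted p = 0.00061). HPC B9.3 was the highest HPC library for all of these. Without it 17 of 19 tested members fell, and without HPC B9.3-2 only 7 did. Of the EMT factors, cadherins and keratins 4 of 6 tested fell, N-cadherin (Cdh2) from 28.6, 24.4 and 20.6 CPM to 4.29, 0.994, 0.241 and 0.208 CPM (-4.06 ± 0.78, adjusted p = 0.0042) and vimentin (Vim) by 2.69 on the log2 scale (SE 0.66, adjusted p = 0.013). Zeb2, a zinc finger repressor known both for EMT and for blood cell development, rose from 16.7, 17.9 and 17 CPM to 66.1, 42.3, 55.2 and 85.5 CPM (1.86 ± 0.26, adjusted p = 0.00097).

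The genes that fell with the smallest adjusted p included Prtg, Amot and others outside these lists. Prtg (protogenin), a cell surface receptor of early mesoderm and neural tissue, went from 22.9, 76.4 and 67.4 CPM to 2.29, 1.77, 1.85 and 1.87 CPM (-4.82 ± 0.41, adjusted p = 0.00013), the scaffold Amot from 28.4, 43.7 and 45.8 CPM to 5.29, 4.64, 4.75 and 3.05 CPM (-3.15 ± 0.26, adjusted p = 0.00013) and the adhesion protein Nectin1 from 2.46, 4.1 and 4.63 CPM to at most 0.143 CPM (-4.85 ± 0.39, adjusted p = 0.00013). The zinc finger genes Zfp423 and Zfp703 fell by 5.29 and 3.95 on the log2 scale, Fignl2 by 4.22 and Antxr1, a collagen-binding receptor, by 4.15. Pcdhga10 and Pcdhga11 fell by 2.5 and 2.47, but these entries of the gamma-protocadherin cluster overlap and share reads, so they stand for a single locus. The tumor necrosis factor receptor Tnfrsf19 was 114-fold lower on 2 HPC counts (31.2 to 950), and Fbln1, a matrix protein, went from 5.14, 5.47 and 9.26 CPM to reads in HPC B9.3 alone, at 0.358 CPM (-5.94 ± 0.71, adjusted p = 0.00044).

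**Figure D4:**
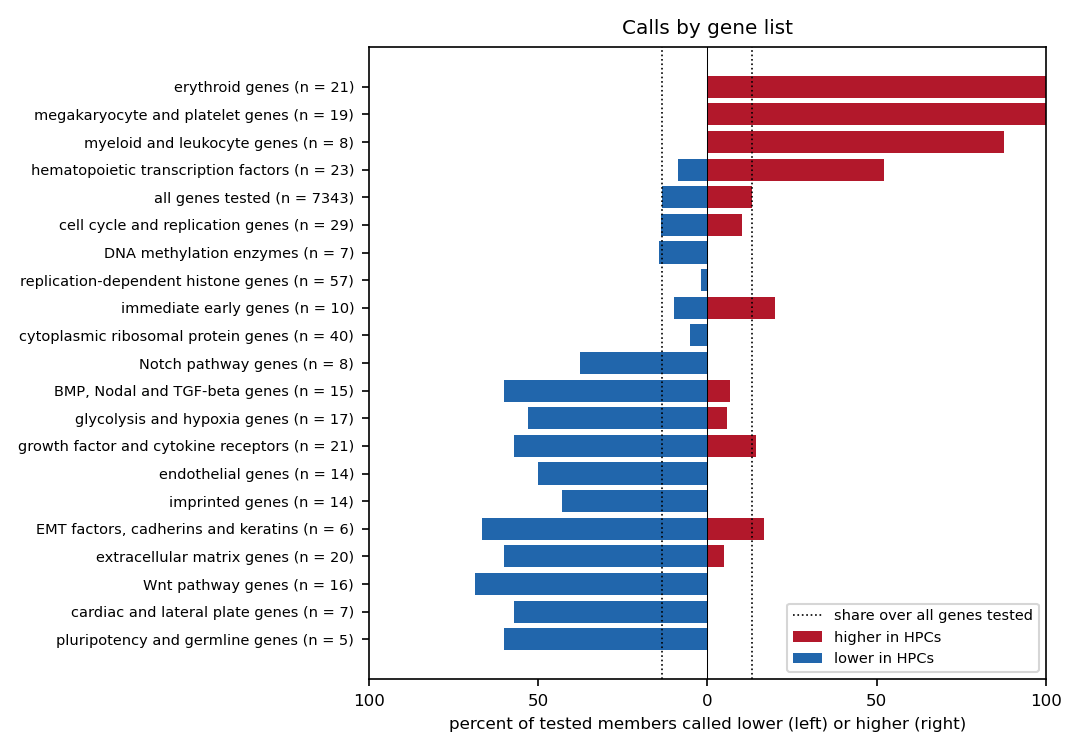
Percent of the tested members of each gene list (n in brackets) that fell (blue, left of 0) or rose (red, right of 0) in HPCs, with dotted lines at the 13.3% and 13.1% of all 7343 tested genes. Erythroid and megakaryocyte genes reach 100% on the right, and Wnt, matrix and BMP genes extend farthest beyond the dotted line on the left among lists of 15 or more.

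Metabolic genes fell in part. Of 17 tested glycolysis and hypoxia genes 9 fell and 1 rose (median log2 difference -1.24). The hexokinases moved apart. Hk1, the form of red cells, rose from 1.98, 1.37 and 0.892 CPM to 11.7 CPM in B9.3-2 and 8.33 CPM in C8.1, its highest and lowest HPC values (2.78 ± 0.30, adjusted p = 0.00028), while Hk2 fell from 7.22, 10.3 and 9.14 CPM to 2.07, 0.994, 0.804 and 0.624 CPM (-2.95 ± 0.37, adjusted p = 0.00054). Pyruvate kinase (Pkm) and lactate dehydrogenase (Ldha) fell by 2.13 (SE 0.35) and 1.72 (SE 0.24) on the log2 scale.

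The cell cycle list held to the background, with 3 of 29 tested genes higher (10.3%) and 4 lower (13.8%), but the D-type cyclins changed places. Ccnd1 fell from 1.93, 4.33 and 3.79 CPM to 0.358, 0, 0 and 0.208 CPM (-4.31 ± 0.65, adjusted p = 0.0013) and Ccnd3 rose from 3.42, 1.25 and 3.07 CPM to 9.94, 6.30, 8.85 and 12.5 CPM (1.82 ± 0.36, adjusted p = 0.0045). Their kinase partners Cdk4 and Cdk6 fell by 1.53 (SE 0.26) and 1.98 (SE 0.34) on the log2 scale. The proliferation gene Mki67 had 27.1, 29.6 and 26.3 CPM in mesoderm and 43.5, 75.7, 88.4 and 36.6 CPM in HPCs (1.14 ± 0.32, adjusted p = 0.024), and its call was lost without mesoderm B9.3, mesoderm C8.1 or HPC C6.1. The cell cycle inhibitor Cdkn1a passed at an adjusted p of 0.045, and not with the clone as a block (adjusted p = 0.085). Nor did it pass by DESeq2 (adjusted p = 0.055) or without a filter (0.053). The Cdkn1a call was also lost without mesoderm B9.3, C6.1 or C8.1 and without HPC B9.3-2 or C8.1 (adjusted p 0.069 to 0.135). Without mesoderm B9.3 or without mesoderm C8.1, 1 member of the list rose.

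Immediate early genes, which answer dissociation and sorting as well as growth signals, had 2 of 10 tested higher (20%) and 1 lower (10%). These shares are near the 13.1% and 13.3% of all genes tested. Myc, the 1 that fell, did not pass without mesoderm C6.1, mesoderm C8.1 or HPC C8.1 (adjusted p 0.078, 0.069 and 0.060). Zfp36 and Btg2, the 2 that rose, went from 0.114 to 0.589 CPM up to 0.884 to 1.60 CPM, and from 0.446 to 1.93 CPM up to 2.15 to 4.75 CPM. Neither passed without mesoderm C6.1, mesoderm C8.1 or HPC C8.1, and Zfp36 did not pass with the clone as a block (adjusted p = 0.050). Of the 7 tested DNA methylation enzymes 1 fell (14.3%), near the 13.3% of all genes tested. It was the demethylase Tet1, from 5.89, 10 and 10.7 CPM to 1.79, 1.99, 2.57 and 3.40 CPM (-1.85 ± 0.30, adjusted p = 0.0018).

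Imprinted genes fell in 6 of 14 tested (median log2 difference -2.25). Peg10, a retrotransposon-derived gene expressed from the paternal allele, went from 138, 100 and 77.6 CPM to 17.9, 5.08, 5.87 and 9.3 CPM (-3.46 ± 0.44, adjusted p = 0.00060) and Peg3 from 75.1, 65.3 and 51.2 CPM to 23.3, 4.42, 5.71 and 3.33 CPM (-2.79 ± 0.62, adjusted p = 0.0081). Of the noncoding RNAs of the Dlk1-Meg3 cluster, Rian and Mirg fell, and Meg3 had 23.2, 6.73 and 13.5 CPM in mesoderm and 6.36, 0.110, 0.322 and 0.139 CPM in HPCs without passing the test (-3.01 ± 1.04, adjusted p = 0.052). Mirg shares reads with the microRNA entries inside it. Igf2, at 228, 41.5 and 80.0 CPM in mesoderm and 61.7, 4.75, 5.47 and 1.94 CPM in HPCs, did not pass either. In all of these genes that are given by library, B9.3 was the highest library of both stages. The list had 3 members that fell without mesoderm B9.3 or HPC C8.1, 2 without mesoderm C8.1 or HPC B9.3-2 and 9 without HPC B9.3.

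Of 57 tested replication-dependent histone genes 1 fell (H3c11, -1.13 ± 0.31, adjusted p = 0.020, and 0.053 with the clone as a block) and none rose, although without mesoderm B9.3 the number that fell was 13 and without HPC B9.3-2 it was 7. Of 40 tested cytoplasmic ribosomal protein genes, Rpl38 and Rps15a fell and none rose; the number that fell was 7 without HPC B9.3-2 and 0 without mesoderm C6.1 or mesoderm C8.1. Their medians were -0.60 and -0.69, below the -0.06 of all genes. The median of all tested single-locus genes under 10 kb was -0.29, and the part of gene span in the 2 medians was not tested. Of 107 small nucleolar RNA genes 2 were tested. The one that passed, Snord58b, is an entry listed at several loci, so its lower value in HPCs is not that of a single gene, and without mesoderm C6.1 its difference was under the limit of 1 (-0.81, adjusted p = 0.0076). No Hox gene of 39 in the table and no gene of the neural list passed the filter on low counts. Several had reads mostly in mesoderm. Hoxd3 had 93 counts in mesoderm and 4 in HPCs, Hoxd4 had 33 and 2, and Hoxa3 had 19 and 0, while Hoxb4 had 0 and 1. Of the neural list, Nes had 71 and 20 counts and Zic2 had 40 and 0.

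The share of genes called varied with the span of the gene. Among genes under 10 kb 13.9% rose and 13.2% fell, from 10 to 30 kb 10.6% and 10.3%, from 30 to 100 kb 13.5% and 11.2%, from 100 to 300 kb 17.3% and 21.6%, and over 300 kb 16.5% and 28.0%. Counts covered introns as well as exons, and the part of read coverage in these shares was not tested.

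The step was also measured in clones that share no library with the wild-type fit. In P1-CTCF-KO cells 17.5% of 7973 tested genes rose and 18.1% fell. Of the genes that rose in wild-type cells 895 were tested there and 823 (92.0%) rose, and of those that fell 965 were tested and 794 (82.3%) fell, with none called in the opposite direction. In P2-CTCF-KO cells 14.5% of 7993 tested genes rose and 10% fell. Of the wild-type genes that rose 742 of 929 (79.9%) rose there too, and of those that fell 464 of 952 (48.7%) fell, while 902 of the 952 had the same sign. These calls made up 59.0% and 55.0% of the P1-CTCF-KO calls and 64.2% and 58.1% of the P2-CTCF-KO calls in each direction. Thbs1 differed by 12.2 and 7.99 (log2) in the P1 and the P2 deletion clones, Nmnat3 by 8.81 and 8.15, Sall4 by -6.53 and -5.25 and Prtg by -5.18 and -4.33. Not every named gene repeated. Rspo3 and Zfp423 differed by -2.44 and -1.88 in P2-CTCF-KO cells and did not pass edgeR's test (adjusted p = 0.15 for each). Mecom differed by 2.71 there, opposite in sign to wild type, and did not pass either (adjusted p = 0.11).

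Cdh5 and Arhgap31 were called in the opposite direction in P2-CTCF-KO cells. Cdh5 differed by 4.88 there, against -3.29 in wild-type and -2.45 in P1-CTCF-KO cells, and Arhgap31 by 3.77 against -3.05 in wild-type cells. The wild-type call of Cdh5 was lost without mesoderm B9.3 or any one HPC library. A test of whether the step itself differed from wild type, over 9170 genes, called 0 (0%) for P1-CTCF-KO and 2 (0.0218%) for P2-CTCF-KO cells, and the opposite calls of Cdh5 and Arhgap31 did not pass it. At an unadjusted p under 0.05, 306 and 643 genes passed, and DESeq2 called 0 and 37. The 2 genes that passed were Cbfa2t3 and Ikzf2, a lymphoid and blood zinc finger factor. Cbfa2t3 rose by 2.52 in wild-type, 3.35 in P1-CTCF-KO and 5.21 in P2-CTCF-KO cells (difference of the steps 2.64, adjusted p = 0.0021). Ikzf2 rose by 1.40, 2.55 and 4.00 (difference 2.54, adjusted p = 0.0079). The paper reports both genes as downregulated in P2-CTCF-KO mesoderm, so a larger step is not by itself a higher level in HPCs.

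Chromatin accessibility was available as ATAC-seq peak positions of the same stages in cells labelled wild-type. By the Methods this line carried a Venus reporter at the end of Runx1 and a reporter transgene of a Runx1 enhancer in Col1a1. Reads over the Venus targeting construct were removed by the authors. Peaks were called on merged reads of 4 mesoderm libraries (2 biological replicates) and 2 HPC libraries (1 biological replicate), without heights. There were 76766 mesoderm and 29037 HPC peaks, of which 19814 (25.8%) and 20149 (69.4%) overlapped a peak of the other list. The stage and the number of merged libraries cannot be told apart, and the shares below are descriptions. Within 1 kb of the start site, 191 of 961 genes that rose (19.9%), 316 of 965 that fell (32.7%) and 972 of 5303 that were not called (18.3%) had a mesoderm peak only. An HPC peak only was found for 28 (2.91%), 10 (1.04%) and 26 (0.490%), and both kinds for 59.5%, 51.6% and 74.0%.

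Among the named genes, Itga2b, Hba-x, Tubb1, Dock2, Tspan32, Uba7 and Peg10 had an HPC peak only at the start site. Peg10 fell, so a peak found in HPCs alone did not always go with a rise. A mesoderm peak only was found at the start sites of Ache, Adcy9, Alox12, Pip5k1b, Slc25a21, Smox, Tal1, Zeb2 and Zfp36, all of which rose. Runx1 had no peak of either list within 1 kb of its annotated start, which is at the distal P1 end of the gene. The P2 promoter was not covered by that window, and the paper reports it as accessible in both stages. Inside Runx1 and its 10 kb flanks there were 3 HPC-only, 8 mesoderm-only and 5 shared peaks. The part of the Runx1 reporter and the enhancer transgene in these Runx1 peaks was not tested. Within the gene or 10 kb of it, 44.2% of the genes that rose, 36.4% of those that fell and 27.4% of those not called held an HPC-only peak, and 88.6%, 93.1% and 82.6% a mesoderm-only peak. Median gene spans were 44668, 56961 and 34556 bases, and the part of gene length in these shares was not tested.

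Short letter patterns were counted in the 200 bases around the centre of each peak, on either strand. Median peak widths were 113 bases in HPCs and 114 in mesoderm. Most windows thus ran past the called peak, and a match can lie in the flanking bases. The letters were AGATAA for the GATA family, TGTGGTT for the RUNX family, AGGAAGT for the ETS family, TGACTCA for the AP-1 family, GGAATGT for the TEAD family and AGGTGTGA for T-box factors. ETS letters stood in 28.5% of HPC-only, 10.8% of shared and 7.65% of mesoderm-only peaks, and RUNX letters in 14.1%, 4.71% and 4.50%. TEAD letters went the other way, in 3.17%, 2.54% and 7.24%. GATA letters were found in 13.7% of HPC-only and 18.3% of mesoderm-only peaks, and in a lower share of shared peaks than of either. In or near genes that rose, fell and were not called, GATA letters stood in 18.0%, 13% and 14.4% of HPC-only peaks. In the same order they stood in 17.4%, 15.9% and 13.8% of mesoderm-only and 14.3%, 8.7% and 6.21% of shared peaks. For HPC-only peaks the ETS shares were 28.0%, 29.9% and 25.7%, and the RUNX shares 13.1%, 12.5% and 12.4%. A match is a description of letters, not a bound site.

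**Figure D5:**
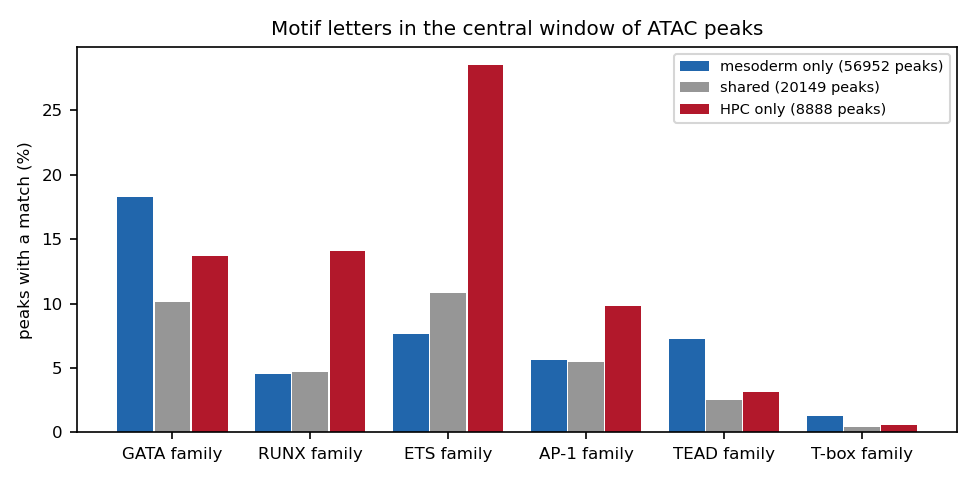
Percent of ATAC peaks with the letters of each motif family in the 200 bases around the peak centre, flanking bases included. Shown are 56952 mesoderm-only, 20149 shared and 8888 HPC-only peaks. ETS (28.5%) and RUNX (14.1%) letters are most frequent in HPC-only peaks and TEAD letters (7.24%) in mesoderm-only peaks.

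Peaks of 5 genes described above show what these windows look like. They were picked after the values were seen, for genes on both sides of the step. Printed are the 200 bases around each peak centre, on the plus strand of mm9 (NCBI build 37). The matched letters of the patterns above are in capitals as they read on that strand, reverse matches included. Coordinates are those of the windows. The peaks of Vav1 (123 bases) and Atp8a1 (72 bases) are narrower than their windows, and the ETS match of Vav1 lies outside its peak. HPC-only peaks lie in introns of Nmnat3 (chr9:98233792-98233991, with GATA, RUNX and 2 ETS matches), Vav1 (chr17:57430234-57430433, RUNX and ETS) and Atp8a1 (chr5:68147462-68147661, GATA), all of which rose. Mesoderm-only peaks lie upstream of Bmp5 (chr9:75616897-75617096, 3 GATA matches and TEAD) and in an intron of Prtg (chr9:72673469-72673668, GATA and ETS), both of which fell.
Nmnat3: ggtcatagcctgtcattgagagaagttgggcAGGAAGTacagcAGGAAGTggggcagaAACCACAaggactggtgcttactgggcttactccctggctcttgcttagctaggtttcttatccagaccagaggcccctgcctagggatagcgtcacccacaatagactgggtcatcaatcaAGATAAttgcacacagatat
Vav1: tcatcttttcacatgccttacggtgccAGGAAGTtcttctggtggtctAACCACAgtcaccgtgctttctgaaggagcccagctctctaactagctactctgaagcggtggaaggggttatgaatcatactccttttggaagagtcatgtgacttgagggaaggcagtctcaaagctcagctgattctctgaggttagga
Atp8a1: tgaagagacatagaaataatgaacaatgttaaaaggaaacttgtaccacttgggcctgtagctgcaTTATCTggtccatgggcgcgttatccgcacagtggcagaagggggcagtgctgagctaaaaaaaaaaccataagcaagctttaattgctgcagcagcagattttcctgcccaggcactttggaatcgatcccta
Bmp5: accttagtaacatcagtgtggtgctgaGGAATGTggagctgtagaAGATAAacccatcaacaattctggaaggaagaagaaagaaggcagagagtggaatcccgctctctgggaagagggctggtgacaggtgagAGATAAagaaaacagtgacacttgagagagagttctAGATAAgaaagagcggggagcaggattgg
Prtg: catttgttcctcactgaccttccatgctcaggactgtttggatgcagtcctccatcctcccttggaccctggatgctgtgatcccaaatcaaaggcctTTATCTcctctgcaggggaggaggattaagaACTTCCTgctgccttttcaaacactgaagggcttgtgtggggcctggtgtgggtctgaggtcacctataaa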

How the data were processed

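Poly(A)-minus RNA-seq values are counts as deposited. For these counts the authors aligned to mm9 (STAR), dropped duplicate reads (picard) and assigned the rest to genes, introns included (featureCounts). No normalization was applied. Which annotation and which strand option they used is not given in the sources used here. The library kit is directional, and among nested genes with at least 50 counts 0 of 860 same-strand and 68 of 106 opposite-strand pairs exceeded their host, so overlapping entries on a strand share reads. Overlapping entries held 659 of the 7343 genes tested and 195 of the 1939 calls, and ribosomal RNA or entries listed at several loci (several spans, or a span over 2.5 Mb) held 13. By the Methods, ribosomal RNA depletion is named for undifferentiated and 416B cells only. The ATAC-seq peak positions are those the authors deposited, called with MACS2 on the short inserts of merged libraries, in mm9 coordinates; the labels name the line E14-TG2a and the Methods a derivative of it.

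The test was that of edgeR 4.0.16 under R 4.3.3 on the 7 libraries (TMM, filterByExpr with a minimum count of 10, quasi-likelihood test, Benjamini-Hochberg adjustment over all 7343 genes tested). A gene was called at an adjusted p under 0.05 and a log2 difference over 1 in size. The filter keeps a gene through its higher group, so counts over tested members do not speak for the untested ones. Where a group had no read, the fold is a lower bound at a floor of 3 counts over the group, and with 1 to 3 counts it is the ratio with an exact 95% interval. Such bounds and intervals cover counting error only. Replicate labels name clones, and the study's legends call the libraries independent experiments, although B9.3 and B9.3-2 share a clone name. The p-values measure the spread between these libraries. Every pair of libraries within a stage differed beyond sampling noise (chi-square per gene 4.42 to 37.7), B9.3 and B9.3-2 included.

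Named genes were the 12 higher and 12 lower with the smallest adjusted p, the 8 and 8 with the largest fold at a mean of at least 5 CPM, both without overlap between groups and without ribosomal, multi-locus, Gm, Rik, LOC or Mir entries, up to 3 per direction from each list, and 10 genes named outright. Some of these genes are not reported here. Others named beside them are members of the lists given as examples. The members and the gene lists were chosen with earlier results of these data known. The clone pairs mesoderm with HPCs by the labels, and deviations from the stage mean correlated at -0.04 (B9.3), 0.22 (C6.1) and -0.08 (C8.1), so the clone as a block was an alternative. The other alternatives were DESeq2 1.42.0, RLE size factors, other filters and fold limits, other sets of libraries, thinned libraries and each library left out. Leaving out abundant single-locus entries was added after the data were seen. The test was checked on simulated counts. Every column of the count table has a sample, and those of undifferentiated cells were used in alternatives only.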

Additional observations from a re-analysis of the deposited data

Results flagged for a closer look

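Among the HPC libraries, 16 of the 101 named genes tested had a single library far from the others. The measure is the gap to its nearest neighbour over the range of the 4 CPM values. Groups of this size pass the limit used, Dixon's 95% critical value for 4 samples, by chance at a rate of about 5 in 100. That rate is for normally spread values and does not hold near 0 reads. Where a single HPC library holds reads the measure is 1 whatever their number, as for Fbln1, Pdgfra, Bmp7, Tbx3 and Lef1. Explanations were not tested. The library that stood apart was B9.3, on the high side, for Fbln1 (1), Pdgfra (1), Bmp7 (1), Cdh11 (0.976), Fbn2 (0.904), Gata6 (0.890), Peg3 (0.881), Vcan (0.842), Mirg (0.841) and Bmp5 (0.838). These are genes that fell, and HPC B9.3 is also the HPC library with 324 counts of Col1a2 and 225 of Postn. For Cdh5 it was B9.3-2, on the high side (0.891). For Tbx3 (1) and Lef1 (1) it was C6.1, with 1 and 2 counts where the others had 0. Zfp703 (0.909) and Cbfa2t3 (0.857) were lowest in C6.1, and Tal1 (0.855) was highest in C8.1.

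The step from mesoderm to HPCs differed between P2-CTCF-KO and wild-type cells for Cbfa2t3 (by 2.64 on the log2 scale) and Ikzf2 (by 2.54), by edgeR's test of the difference itself. Both genes are reported by the paper as lower in P2-CTCF-KO mesoderm, where this step starts.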

How the results depend on the processing

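The higher and lower counts of the step (963 and 976) were 902 and 920 with the clone as a replicate block, 986 and 898 with DESeq2 and 1005 and 906 with RLE size factors. With a minimum count of 30 they were 625 and 451, and the genes that fell numbered 1717 without a filter, 1618 with all 9 wild-type libraries in the fit and 1559 with all 23. Fewer or more genes were tested under the filters; for the other fits the cause was not tested. Leaving out 1 library gave 821 to 1089 genes that rose and 665 to 1120 that fell. Wild-type calls also called in P1-CTCF-KO cells (1617) numbered 2480 without a filter and 1285 to 1703 with 1 library left out, and in P2-CTCF-KO cells (1206) 710 to 1509, lowest without P2-CTCF-KO mesoderm E9.1. Steps that differed in P2-CTCF-KO cells (2) numbered 37 with DESeq2 and 1 to 4 with 1 library left out, namely 1 without wild-type mesoderm C8.1, P2-CTCF-KO mesoderm D2.1 or P2-CTCF-KO mesoderm E9.1 and 4 without wild-type mesoderm C6.1 or P2-CTCF-KO HPC D10.1; for P1-CTCF-KO cells the number was 0 under each alternative run. Of 1889 values of 101 named genes under the alternatives, 1833 kept direction and call, 55 lost the call and 1 reversed, Kit at 0.076 (adjusted p = 0.93) without mesoderm B9.3, in a range from -1.48 to 0.076 with 1 library left out. The block changed the call of 3 named genes (Cdkn1a, Zfp36 and H3c11). The filter on low counts limits what could be tested, the primitive streak list above all. Its minimum count is scaled to library size, and the mesoderm libraries were the larger. Eomes, with 14, 47 and 28 counts in mesoderm, was thus not tested.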
